A study of Mus musculus with 6 samples.

Results

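Expression of 10 genes of cholesterol efflux, lipid uptake and lipid storage was followed in RAW264.7, a mouse macrophage-like cell line. The genes were taken by symbol from the deposited tables and number 10 of 54532 genes listed: Nr1h3, Nr1h2, Abca1, Abcg1, Apoe, Mylip, Lpl, Plin2, Scd1 and Scd2. RNA sequencing covered 3 libraries labelled ERMAP shRNA (genotype ERMAP knockdown, treatment shRNA) and 3 control libraries (genotype WT, no treatment tag). ERMAP is a cell-surface protein related to butyrophilins and best known from red cells, and the comparison asks which genes differ after its knockdown. All 6 libraries come from the same line, grown in DMEM with serum, and the treatment text speaks of a lentivirus for all of them, so whether controls were transduced, and with what, is not settled by the labels. The labels do not describe separate cultures, so the p-values rest on library-to-library spread alone, and that spread may be technical.

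The targeted gene, Ermap, did not test lower in the labelled group. It had 10, 21 and 14 counts in libraries labelled ERMAP shRNA, against 12, 12 and 3 counts in control libraries (edgeR log2 fold change 0.81, SE 0.52, adjusted p = 0.929). Summed counts ranged from 13447021 to 16602734 per library. Control replicate 1 stood apart: mitochondrial transcripts made up 3.69% of its counts against 1.71% to 2.18% elsewhere, and its log2 CPM relative to the other controls fell as transcript GC content rose (rank correlation -0.773 over 10765 protein-coding genes, a description, since genes share the library). Within the labelled group, replicate 2 had a weaker trend of the same sign (-0.469). Results are therefore given with all 6 libraries, without control replicate 1, and with offsets for GC content per library. The 8 macrophage markers summed to between 6719 and 6836 CPM (counts scaled to TMM-adjusted library size) in the labelled group and between 6768 and 7058 CPM in control. Markers of adipocytes, hepatocytes, T cells, B cells, neutrophils, fibroblasts, epithelium and erythroid cells were near 0, each list summing to at most 0.399 CPM in the labelled group and 0.277 CPM in control, and 4 of the 6 adipocyte markers had no count in any library.

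The liver X receptors are nuclear receptors that sense oxysterols, the oxidised forms of cholesterol. They pair with retinoid X receptors on spaced direct repeats near their target genes. In macrophages, which take up lipoproteins and dying cells, their best known targets carry cholesterol out of the cell, limit further lipoprotein uptake and raise fatty acid synthesis. Neutral lipid that is not exported is kept in lipid droplets.

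Abca1, the transporter whose promoter is a textbook site of liver X receptor binding, is shown here with the bases before its start, because it is the target most often used to read this pathway. The window is chr4:53159896-53160145 on the minus strand (GRCm38.p6, sequence from RefSeq), and capitals mark a direct repeat.
Abca1: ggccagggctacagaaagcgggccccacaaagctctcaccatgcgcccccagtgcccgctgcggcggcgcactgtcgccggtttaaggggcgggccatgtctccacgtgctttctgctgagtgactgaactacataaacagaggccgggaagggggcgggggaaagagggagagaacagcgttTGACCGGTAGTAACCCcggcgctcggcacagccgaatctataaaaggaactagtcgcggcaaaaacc
The search used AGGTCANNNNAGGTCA on both strands, with up to 3 mismatches in its 12 fixed letters. The limit was set at 3 after a limit of 2 had found nothing in any of the 9 windows that RefSeq gives for 6 of the 10 genes. The Abca1 match begins 67 bases before the start, lies on the opposite strand and has 3 mismatches. It was the only match in the 9 windows, and 18.5% of all 32851 windows of this length hold such a match (2.57% at 2 mismatches). A match is a description of these letters only. No binding was measured in these libraries.

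Of the 10 genes, Lpl (lipoprotein lipase) stood lowest in the labelled group relative to control, at 0.672-fold, and the other 9 had log2 fold changes between -0.26 and 0.11 with all 6 libraries. All 10 passed the filter on low counts. With all 6 libraries, edgeR called 0 of them at an adjusted p under 0.05, where 1.14% of 12491 tested genes were called and 0.136% were called lower. At an unadjusted p under 0.05, 1 of the 10 was lower (Lpl), beside 6.76% of all tested genes in either direction and 3.04% lower. DESeq2 and limma-trend on deposited FPKM also called 0 of the 10. In 2 of the 10, Lpl and Mylip, every labelled library had a lower CPM than every control library. That share compares with 14.2% of all tested genes in either direction and 6.47% lower. Of the 10 values, 4 were positive, and their median log2 fold change was -0.04, against 48.3% positive and a median of -0.01 over all tested genes.

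**Figure D1:**
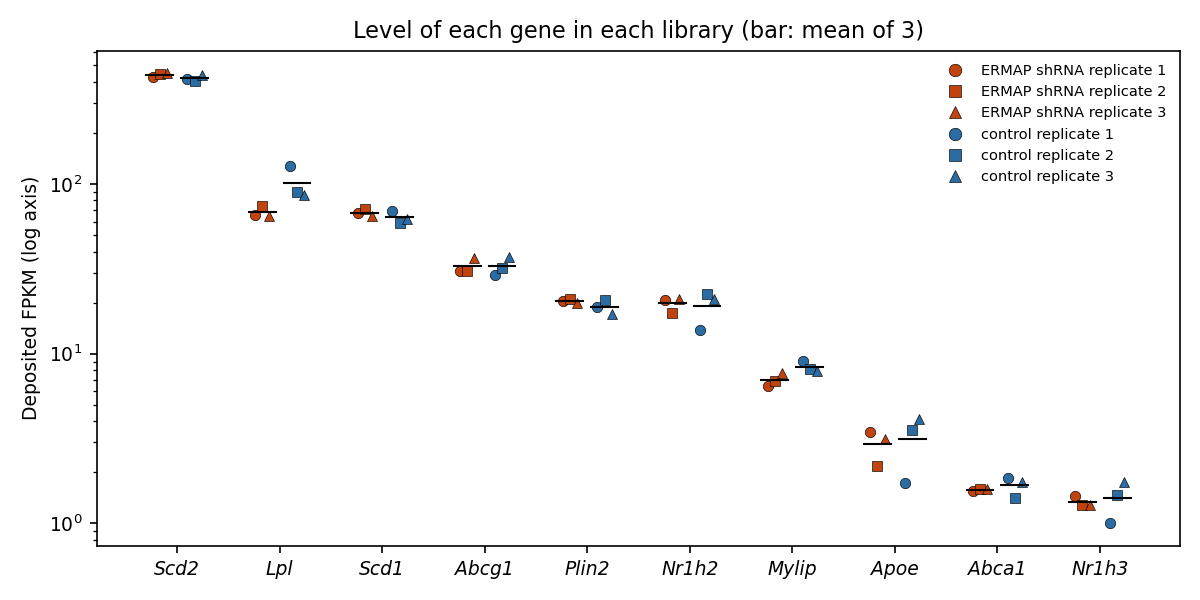
Deposited FPKM (log axis) of the 10 genes in each library, ordered by their mean. Libraries labelled ERMAP shRNA are left and orange, control libraries right and blue, and bars are means of 3. Scd2 is highest at 407 to 449 FPKM and Nr1h3 lowest at 1.00 to 1.75 FPKM, and the Lpl groups do not overlap.

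Per length, the genes spanned a 313-fold range of mean FPKM (counts scaled by gene length and library size, as deposited by the authors). Over the 6 libraries Scd2 averaged 430.6 ± 17.6 FPKM (SD, n = 6), Lpl 84.8 ± 23.6 FPKM and Scd1 65.9 ± 4.51 FPKM. Abcg1 averaged 32.8 ± 3.27 FPKM, Plin2 19.7 ± 1.44 FPKM, Nr1h2 19.4 ± 3.28 FPKM and Mylip 7.69 ± 0.951 FPKM. At the low end stood Apoe with 3.03 ± 0.908 FPKM, Abca1 with 1.63 ± 0.163 FPKM and Nr1h3 with 1.37 ± 0.247 FPKM. Neighbours in this order whose ranges overlapped were Lpl and Scd1, Plin2 and Nr1h2, Apoe and Abca1, and Abca1 and Nr1h3. Lpl exceeded Scd1 in 1 of 3 libraries labelled ERMAP shRNA and in 3 of 3 control libraries. The order depends on the gene length used. The authors' length of Lpl, 10478 bases, is 2.55 times its longest GENCODE vM21 transcript (4115 bases), and per longest transcript Lpl would stand at 215.9 on the FPKM scale, still between Scd2 and Scd1. On that scale Abcg1 moves behind Plin2 and Nr1h2, and Abca1 behind Nr1h3. The deposited positions of Abcg1, Scd1 and Scd2 differ from those in GENCODE vM21. The longest vM21 transcript of Abcg1 (5832 bases) exceeds the authors' length (4066 bases), so its move mixes different annotations. For Scd1 (4832 against 4836 bases) and Scd2 (5455 against 5453 bases) the same lengths are nearly equal.

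The liver X receptors themselves did not pass the test in either direction. Nr1h2 (LXR beta, ENSMUSG00000060601, mm10 chromosome 7, 44549616 to 44553951, minus strand) is the form found in most cell types. It had 70.4, 58.5 and 71.3 CPM in libraries labelled ERMAP shRNA, against 46.7, 76.2 and 71.0 CPM in control libraries. Control replicate 1 was the lowest of the 6, and the groups overlapped. The log2 fold change was 0.05 (95% interval -0.39 to 0.48, SE 0.19, adjusted p = 0.972 by edgeR), -0.15 without control replicate 1 (adjusted p = 0.417) and -0.05 with GC offsets (adjusted p = 0.828), so its sign turned in those fits.

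Nr1h3 (LXR alpha, ENSMUSG00000002108, chromosome 2, 91184061 to 91202834, minus strand) is the form enriched in liver, fat and macrophages. It had 49, 49 and 49 counts in libraries labelled ERMAP shRNA, against 37, 62 and 67 counts in control libraries. The control counts lay on either side of the labelled group. The edgeR log2 fold change was -0.08 (SE 0.25, 95% interval -0.65 to 0.49, adjusted p = 0.966). Exons of a processed transcript, Gm13783, overlap it on the same strand, with 10 counts over the 6 libraries against 313 for Nr1h3. Per length, Nr1h3 stood at 0.0694, 0.0743 and 0.0610 of the Nr1h2 level in libraries labelled ERMAP shRNA, against 0.0731, 0.0654 and 0.0831 in control libraries. The groups overlapped in this ratio, which needs no scaling between libraries (difference of log2 ratios -0.11, 2-sided exact permutation p = 0.5, where 3 against 3 cannot go below 0.1).

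The transporters that pass cholesterol to lipoproteins outside the cell differed by less than their spread. Abca1 (ENSMUSG00000015243, chromosome 4, 53030787 to 53159895, minus strand), whose promoter is printed above, loads lipid onto lipid-poor apolipoproteins. It had 16.1, 16.6 and 16.5 CPM in libraries labelled ERMAP shRNA, against 19.6, 14.7 and 18.4 CPM in control libraries. The labelled group lay inside the control range. Its log2 fold change was -0.10 (95% interval -0.42 to 0.23, SE 0.14, adjusted p = 0.949 by edgeR).

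Abcg1 (ENSMUSG00000024030, chromosome 17, 31057698 to 31115777, plus strand) moves cholesterol towards high-density lipoprotein. It had 126.7, 126.3 and 148.7 CPM in libraries labelled ERMAP shRNA, against 120.4, 131.6 and 152.5 CPM in control libraries, and the ranges lay almost on top of each other. Its log2 fold change was -0.01 (95% interval -0.29 to 0.27, SE 0.12, adjusted p = 0.994 by edgeR).

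Apoe (ENSMUSG00000002985, chromosome 7, 19696109 to 19699188, minus strand) encodes apolipoprotein E, which macrophages secrete as an acceptor of cholesterol. It had few reads here, 100, 70 and 102 counts in libraries labelled ERMAP shRNA, against 54, 128 and 134 counts in control libraries. Control replicate 1 was the lowest and the other controls were the highest. The log2 fold change was -0.11 with a wide interval (95% interval -0.87 to 0.66, SE 0.33, adjusted p = 0.966 by edgeR), and -0.40 without control replicate 1 (95% interval -0.80 to 0.00, adjusted p = 0.305).

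Apoe varied most over the 6 libraries among the members with a mean of at least 5 CPM (SD of log2 CPM 0.47). The 3 protein-coding genes with the most similar profile were Drc3 (chromosome 11, a dynein regulatory complex subunit of cilia), Ypel3 (chromosome 7) and Dbn1 (chromosome 13, the actin-binding protein drebrin). Their root mean square differences from the centred log2 CPM of Apoe were 0.07, 0.10 and 0.11 over 6 libraries. The median over all tested genes was 0.46, and the 3 genes were picked as the smallest, so the gap is fixed by that choice. The longest transcript of Apoe has a GC content of 59.5%, against 50.4% for Drc3, 59.8% for Ypel3 and 58.2% for Dbn1. The part of GC content in the likeness was not tested. Drc3 had 12, 7 and 10 counts in libraries labelled ERMAP shRNA, against 5, 14 and 16 counts in control libraries. As with Apoe, control replicate 1 was the lowest of the 6. Ypel3 averaged 7.97 ± 1.49 CPM in libraries labelled ERMAP shRNA and 9.22 ± 3.55 CPM in control libraries, and Dbn1 averaged 1.25 ± 0.279 CPM in libraries labelled ERMAP shRNA and 1.43 ± 0.524 CPM in control libraries (SD, n = 3 each).

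Mylip (ENSMUSG00000038175, chromosome 13, 45389742 to 45412022, plus strand) encodes IDOL, a ubiquitin ligase that limits lipoprotein uptake. It had 20.9, 22.3 and 25.1 CPM in libraries labelled ERMAP shRNA, against 29.7, 26.7 and 25.7 CPM in control libraries. Every labelled library was below every control library, by a narrow margin between the nearest pair. The log2 fold change was -0.26 (95% interval -0.55 to 0.02, SE 0.12, adjusted p = 0.791 by edgeR). It was -0.21 without control replicate 1 (adjusted p = 0.344) and -0.27 with GC offsets (adjusted p = 0.283), and it was not called in any alternative run.

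**Figure D2:**
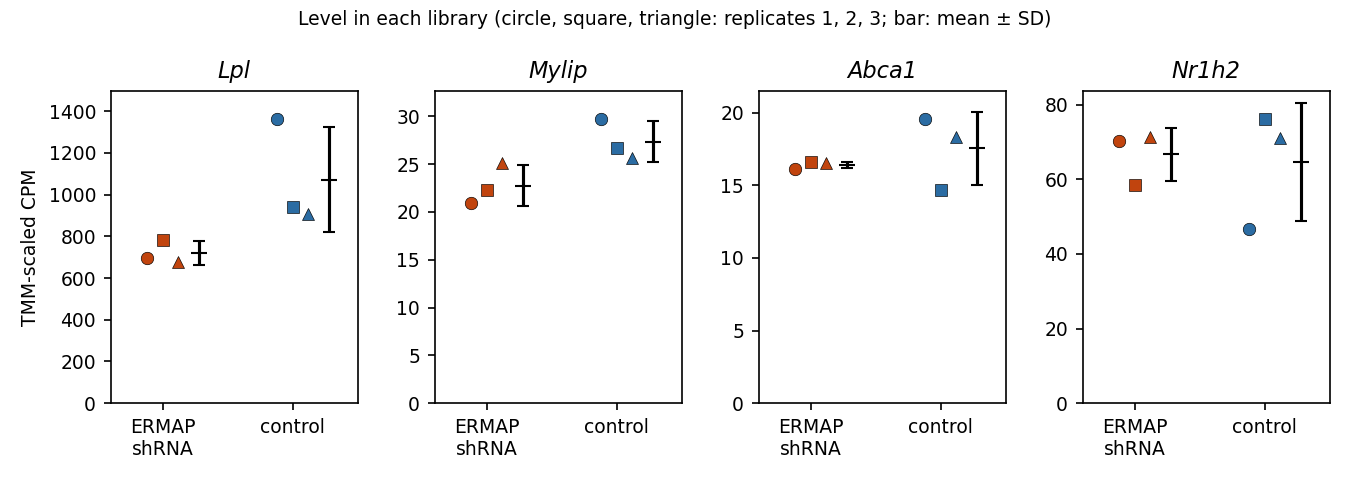
TMM-scaled CPM of Lpl, Mylip, Abca1 and Nr1h2 in each library, with libraries labelled ERMAP shRNA left and control libraries right, and mean ± SD (n = 3) beside the points. All 3 labelled libraries lie below all 3 controls for Lpl (678 to 784 against 909 to 1363 CPM) and Mylip, while the groups overlap for Abca1 and Nr1h2.

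Lpl was the member with the widest gap between the groups. Lpl (ENSMUSG00000015568, chromosome 8, 68880491 to 68907448, plus strand) encodes lipoprotein lipase, which macrophages secrete and which frees fatty acids from triglyceride-rich lipoproteins. It had 698, 784 and 678 CPM in libraries labelled ERMAP shRNA, against 1363, 942 and 909 CPM in control libraries. No labelled library reached the lowest control, and control replicate 1 was far above the other controls. Means were 720.1 ± 56.1 CPM in the labelled group and 1071 ± 253 CPM in control (SD, n = 3 each).

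With all 6 libraries the log2 fold change of Lpl was -0.57 (0.672-fold, SE 0.16, 95% interval -0.95 to -0.19), which did not pass the test over all genes (edgeR adjusted p = 0.306). In bulk RNA, fewer cells of a kind and less RNA per cell cannot be told apart. Without control replicate 1, Lpl was called lower, with a smaller log2 fold change of -0.37 (95% interval -0.51 to -0.23, edgeR adjusted p = 0.000846). It was then the only member called of 10, beside 2.22% of tested genes called lower and 2.73% called higher. With GC offsets it was again called lower and again the only member called (log2 fold change -0.48, 95% interval -0.64 to -0.32, edgeR adjusted p = 0.00296), beside 1.18% of genes called lower and 2.15% called higher. After that adjustment Lpl stood at 727, 774 and 711 CPM in libraries labelled ERMAP shRNA, against 1119, 1019 and 949 CPM in control libraries. Without any other single library it was not called (adjusted p 0.291 to 0.954), and DESeq2 gave adjusted p = 0.0682.

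**Figure D3:**
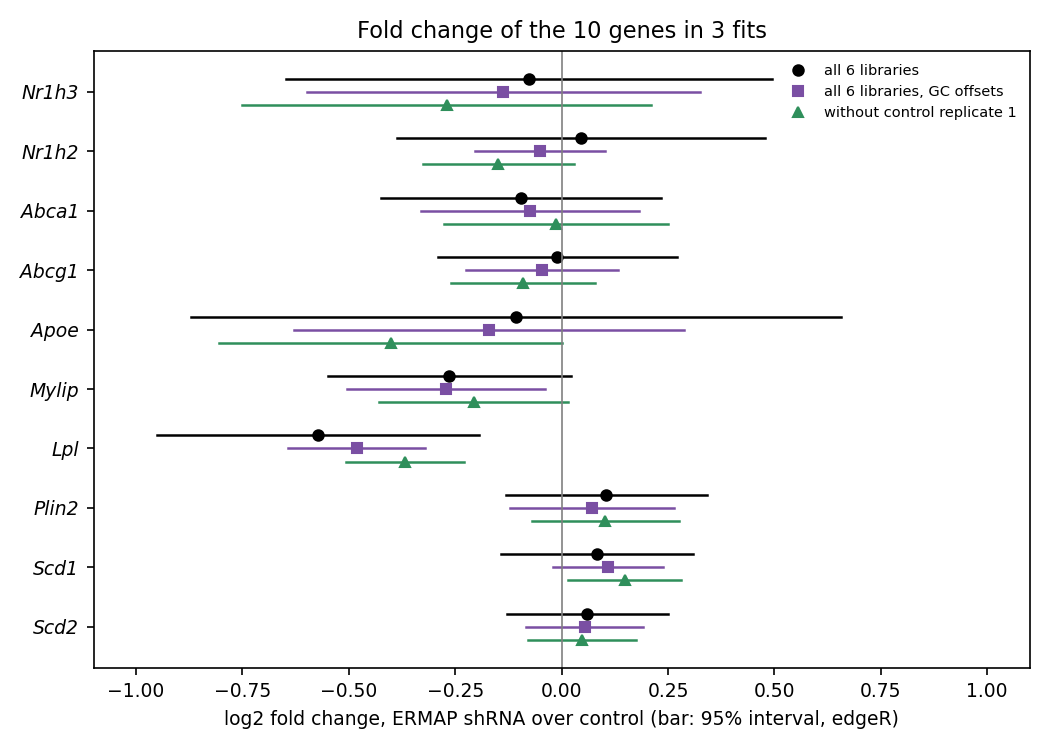
Log2 fold change (ERMAP shRNA over control, horizontal axis) with its 95% interval from edgeR for the 10 genes in 3 fits. The interval of Lpl lies below 0 in all 3 fits (-0.57, -0.48 and -0.37). Those of the other 9 cross 0 in all 3 fits, except Mylip with GC offsets and Scd1 without control replicate 1, and neither was called after adjustment.

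Plin2 and the stearoyl-CoA desaturases, the storage and synthesis side of the group, had small positive values, and the test called 0 of the 3. Plin2 (ENSMUSG00000028494, chromosome 4, 86648386 to 86670060, minus strand) encodes perilipin 2, a coat protein of lipid droplets. It had 72.4, 74.2 and 69.9 CPM in libraries labelled ERMAP shRNA, against 67.5, 73.2 and 60.6 CPM in control libraries. The groups overlapped, with a log2 fold change of 0.11 (95% interval -0.13 to 0.34, SE 0.10, adjusted p = 0.937 by edgeR).

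Scd1 and Scd2 make monounsaturated fatty acids from saturated ones and lie in the same cluster on chromosome 19, 87586 bases apart on opposite strands. Scd1 (ENSMUSG00000037071, 44394451 to 44407709, minus strand) had 328, 346 and 316 CPM in libraries labelled ERMAP shRNA, against 342, 289 and 305 CPM in control libraries. Scd2 (ENSMUSG00000025203, 44293676 to 44306864, plus strand) had 2335, 2449 and 2462 CPM in libraries labelled ERMAP shRNA, against 2294, 2238 and 2415 CPM in control libraries. In each gene the groups overlapped. The edgeR log2 fold changes were 0.08 for Scd1 (SE 0.10, 95% interval -0.14 to 0.31, adjusted p = 0.942) and 0.06 for Scd2 (SE 0.08, 95% interval -0.13 to 0.25, adjusted p = 0.948). With GC offsets the Scd1 groups were apart, at 333, 344 and 320 CPM in libraries labelled ERMAP shRNA and 318, 298 and 310 CPM in control libraries. The margin between the nearest pair, 320 and 318 CPM, was narrow. The Lpl and Mylip groups stayed apart as well, and the share of all tested genes apart after this adjustment was not computed. Scd1 was not called in that fit (log2 fold change 0.11, edgeR adjusted p = 0.487) or without control replicate 1 (0.15, edgeR adjusted p = 0.24).

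Scd2 exceeded Scd1 by 6.54-fold in mean FPKM. Scd1 stood at 0.158, 0.159 and 0.145 of the Scd2 level in libraries labelled ERMAP shRNA, against 0.168, 0.145 and 0.142 in control libraries, and the groups overlapped (difference of log2 ratios 0.02, 2-sided exact permutation p = 0.9, where 0.1 is the smallest possible). The 2 genes are related in sequence. Of the 50-base windows of Scd1 transcripts, 2.97% also occur in Scd2, and 2.66% of those of Scd2 occur in Scd1. Scd3, named here for its sequence alone, shares 3.42% of the Scd1 windows and 2.49% of the Scd2 windows. Scd4, named for the same reason, shares 1.72% and 1.12%. A small part of the reads could be split among these genes, in a way the sources used here do not describe. The transcripts of Nr1h2 and Nr1h3, and those of Abca1 and Abcg1, share 0 such windows.

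Of the 10 intervals with all 6 libraries, 6 lay within 0.5 of 0 on the log2 scale: those of Abca1, Abcg1, Nr1h2, Plin2, Scd1 and Scd2. Those of Apoe, Nr1h3, Mylip and Lpl reached further, so a change of that size could have been missed in Apoe, Nr1h3 and Mylip.

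Much of the spread among controls ran with base composition. In control replicate 1, log2 CPM was 0.56 above the mean of the other controls for Lpl, whose longest transcript has the lowest GC content of the 10 (43.5%). The same difference was -1.12 for Apoe (GC 59.5%), -0.65 for Nr1h2 (GC 60.6%) and -0.64 for Nr1h3 (GC 56.8%). Scd2, with a GC content of 49.5%, differed by -0.02. Beyond the fits with GC offsets and without this library, its part in each result was not tested.

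**Figure D4:**
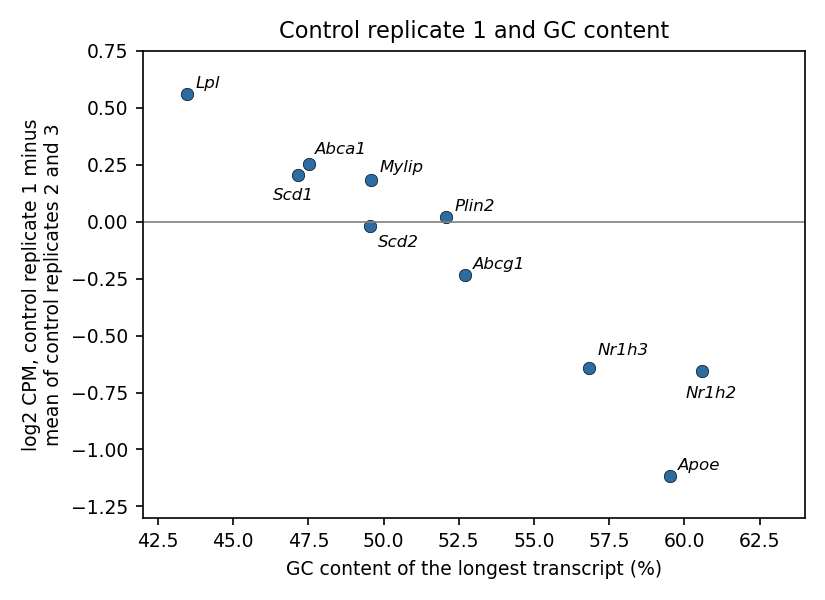
Log2 CPM of control replicate 1 minus the mean of control replicates 2 and 3 (vertical axis) against the GC content of each gene's longest transcript (horizontal axis, percent) for the 10 genes. Lpl, at 43.5% GC, is 0.56 above the other controls, and Apoe, at 59.5% GC, is -1.12 from them.

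Around these genes, 7 lists of pathway genes with 90 members were examined, of which 60 passed the filter. With all 6 libraries edgeR called 0 of 60, and an unadjusted p under 0.05 was reached by 5 with positive and 2 with negative values, beside 6.76% of all tested genes in either direction and 3.04% lower. DESeq2 called 1 lower (Pltp) and 1 higher (Arl4c), where it called 0.568% of all tested genes lower and 1.62% higher. The groups were apart in 15 of the 60, of which 5 were lower in the labelled group, beside 14.2% of all tested genes in either direction and 6.47% lower. The median log2 fold change was 0.05 and 58.3% were positive, against -0.01 and 48.3% over all tested genes. Of the 30 that did not pass the filter, 16 had no count in any library and none had more than 45 counts over the 6.

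Among 9 tested other targets of the liver X receptors, Pltp, the phospholipid transfer protein that remodels high-density lipoprotein, came nearest to a call. It had 47.0, 53.4 and 49.4 CPM in libraries labelled ERMAP shRNA, against 67.7, 97.3 and 80.3 CPM in control libraries. The groups were well apart, although control replicate 1 was the lowest control rather than the highest. The log2 fold change was -0.71 (95% interval -1.04 to -0.38, SE 0.14, adjusted p = 0.0794 by edgeR). It was called lower without control replicate 1 (-0.84, adjusted p = 4.7e-07), with GC offsets (-0.79, adjusted p = 0.000476) and by DESeq2 (-0.71, adjusted p = 0.00109). Pltp was not called with the replicate block alone, by limma-trend or without any other single library.

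Arl4c, a small GTPase reported as a target of the liver X receptors, went the other way at a low level and is named here after its values were seen. It had 30, 40 and 31 counts in libraries labelled ERMAP shRNA, against 7, 18 and 3 counts in control libraries. The edgeR log2 fold change was 1.94 (SE 0.49, adjusted p = 0.202), and it was called higher by DESeq2 (adjusted p = 0.0201), without control replicate 1 (1.80, edgeR adjusted p = 0.0205) and with GC offsets (1.91, edgeR adjusted p = 0.0456). Arl4c was not called with the replicate block, by limma-trend or without any other single library. Fasn, the fatty acid synthase and the most abundant tested gene of this list per length, had 746, 755 and 837 CPM in libraries labelled ERMAP shRNA, against 496, 677 and 771 CPM in control libraries. The Fasn groups overlapped (log2 fold change 0.27, edgeR adjusted p = 0.916). Srebf1, the lipogenic regulator under liver X receptor control, had a log2 fold change of 0.10 (95% interval -0.24 to 0.43, edgeR adjusted p = 0.949). Apoc1, Apoc2, Apoc4 and Mertk, further known targets named after their counts were seen, had no count in any library.

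Of 9 tested genes of lipoprotein uptake (median 0.06), 0 were called with all 6 libraries. Cd36, a scavenger receptor for oxidised lipoprotein and fatty acids, had 14.0, 13.1 and 9.18 CPM in libraries labelled ERMAP shRNA, against 24.1, 21.6 and 14.9 CPM in control libraries. It did not overlap between groups and was not called (log2 fold change -0.74, SE 0.23, edgeR adjusted p = 0.362). Lipa, the lysosomal acid lipase and most abundant tested gene of the list per length, had a log2 fold change of -0.25 (edgeR adjusted p = 0.873). Without control replicate 1, Lrp1 was called lower (-0.35, edgeR adjusted p = 0.00148) and Msr1 higher (0.35, edgeR adjusted p = 0.0082). That fit called 2.22% of all tested genes lower and 2.73% higher. These 2 receptors are named after their values were seen.

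**Figure D5:**
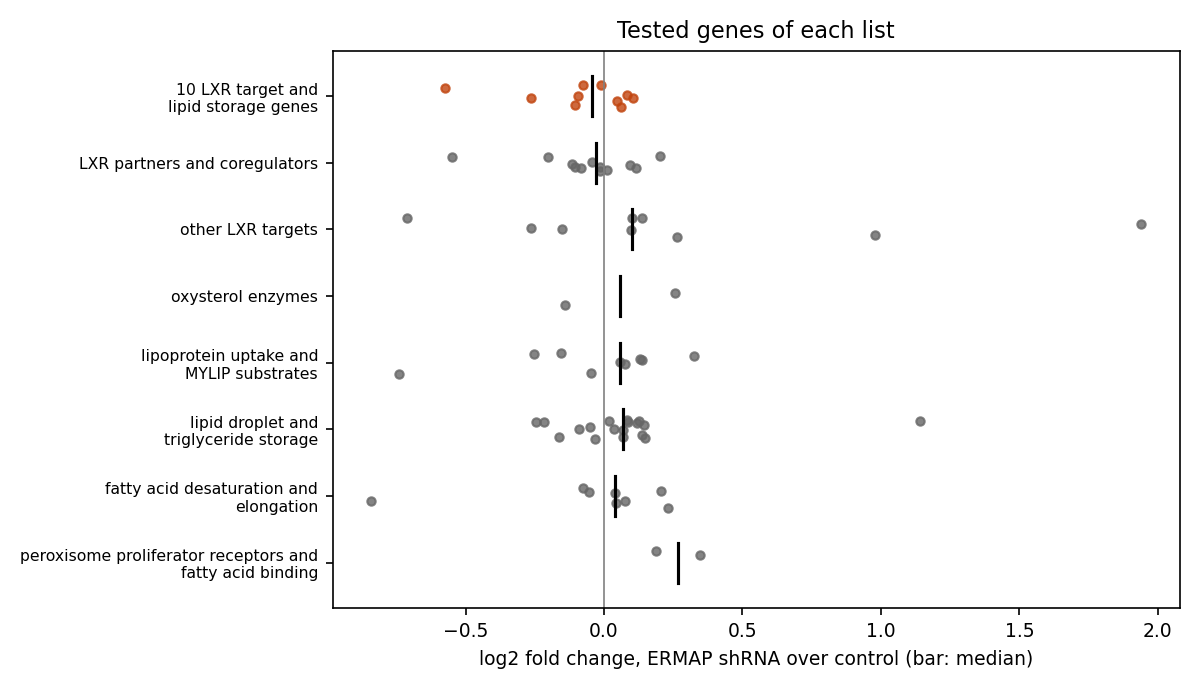
Log2 fold change (ERMAP shRNA over control, horizontal axis) of the tested genes of each list, 1 point per gene (vertical scatter within a list has no meaning), with the list's median as a bar. The 10 genes (top, orange) have a median of -0.04 and run from -0.57 to 0.11, and Arl4c, at 1.94, lies farthest to the right among the other LXR targets.

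In the other 5 lists, 0 genes were called by edgeR or DESeq2 with all 6 libraries. Over all tested genes, 6.76% had an unadjusted edgeR p under 0.05 in either direction. Of 12 tested partners and coregulators of the liver X receptors, 0 had an unadjusted p under 0.05 (median -0.03), with Ncoa3, a coactivator and the most abundant per length, at -0.02 (edgeR adjusted p = 0.979) and Tbl1xr1, a corepressor subunit, at -0.20 (edgeR adjusted p = 0.929). Of 18 tested genes of lipid droplets and triglyceride storage, 1 had an unadjusted p under 0.05 (median 0.07): Dgat2, which makes triglyceride, had 31, 39 and 33 counts in libraries labelled ERMAP shRNA, against 4, 24 and 22 counts in control libraries (edgeR adjusted p = 0.719). Agpat1, an acyltransferase of the same route and the most abundant per length, had a log2 fold change of 0.02 (edgeR adjusted p = 0.985).

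Of 8 tested genes of fatty acid desaturation and elongation (median 0.04), Fads2, the delta-6 desaturase, had the smallest p and the highest level per length, with a log2 fold change of 0.20 (edgeR adjusted p = 0.713). Of 2 tested oxysterol enzymes, 0 were called. Ch25h, which makes 25-hydroxycholesterol in activated macrophages, had 0 counts in all 6 libraries. Of 2 tested peroxisome proliferator receptor and fatty acid binding genes, Ppard, a fatty acid receptor, had a log2 fold change of 0.35 (edgeR adjusted p = 0.793) and Fabp5, a fatty acid carrier, 0.19 (edgeR adjusted p = 0.929).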

How the data were processed

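Gene counts deposited by the authors are whole numbers without normalization, and 2 further tables by the authors hold FPKM for each library and averaged over each group. The submitters' processing notes name HISAT2 and mm10. Counting program, strand setting, annotation release and versions: not given in the sources used here. Deposited FPKM was checked to be proportional, within a library, to count over gene length. Gene positions are those of the deposited tables. Replicate numbers are those of the column names, which could not be tied to single samples.

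Counts were tested across all genes with edgeR 4.0.16 (quasi-likelihood, TMM, filterByExpr at a minimum count of 10, robust, limma 3.58.1, R 4.3.3) in 3 against 3 libraries, with Benjamini-Hochberg adjustment over 12491 genes and calls at an adjusted p under 0.05. The test was also run on counts simulated from the fitted means and dispersions, without a GC trend. That run cannot show how the test behaves with the GC trends of these libraries. GC offsets are lowess curves (span 0.3) of each library's log2 deviation on the GC content of the longest GENCODE vM21 transcript, known for 99.9% of tested genes. Alternatives were DESeq2 1.42.0, limma-trend on log2 FPKM with a pseudocount of 1 or 0.1, other scalings, filters and thresholds, dropping each library in turn, and a replicate block.

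The members and lists were chosen with earlier results of these data known. Named are the 10 members, Ermap, Srebf1, Ch25h, the 3 genes nearest to the most variable member, and from each list the called genes or, with none called, the most abundant per length and that with the smallest p. Some genes that this rule names are not reported here. No pair of libraries within a group agreed within sampling noise (chi-square per gene at least 3.35).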

Additional observations from a re-analysis of the deposited data

How the results depend on the processing

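Of the 10 members, the 9 other than Lpl were called in 0 of the alternatives (lowest adjusted p 0.24), and 6 of the 10 kept their sign in all of them. Lpl was called lower, and was the only member called, with GC offsets (-0.48), with GC offsets and the replicate block (-0.48) and without control replicate 1, so that 1 member was called lower in these and 0 otherwise. Leaving out 1 library moved Lpl between -0.69 (without control replicate 3) and -0.37 (without control replicate 1), Abcg1 between -0.10 and 0.078, Apoe between -0.40 and 0.12, Nr1h3 between -0.27 and 0.094 and Nr1h2 between -0.15 and 0.18. It moved Abca1 between -0.21 (without control replicate 2) and -0.014 (without control replicate 1), Mylip between -0.35 and -0.21, Plin2 between 0.028 (without control replicate 3) and 0.17 (without control replicate 2), Scd1 between 0.030 (control replicate 2 left out) and 0.15 (control replicate 1 left out) and Scd2 between 0.037 and 0.084. Nr1h2 changed sign also with GC offsets (-0.051) and with these and the block (-0.053). The members' median was lowest at -0.12, when control replicate 1 was left out, and highest at 0.067, when control replicate 3 was. The difference in the log2 ratio of Scd1 to Scd2 ran from -0.021 to 0.10. For Nr1h3 to Nr1h2 it ran between -0.20 (without control replicate 2) and -0.023 (without control replicate 3). Pathway genes called higher were 1 in DESeq2 and 2 with GC offsets, and called lower 1 in each of DESeq2, no filter on low counts, GC offsets, GC offsets with the block, and an adjusted p under 0.10. Leaving out 1 library gave 0 to 2 in each direction, with 2 and 2 without control replicate 1. Over all tested genes, GC offsets called 2.15% higher and 1.18% lower. The fit without control replicate 1 called 2.73% higher and 2.22% lower.

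Against 126 genes called higher over all tested genes, DESeq2 gave 202, the replicate block 81, GC offsets 269 and an adjusted p under 0.01 gave 82, and leaving out 1 library gave 74 to 341. Against 17 called lower, testing without a filter on low counts gave 32, DESeq2 71, the replicate block 3, GC offsets 147, GC offsets with the block 68, an adjusted p under 0.01 gave 3 and one under 0.10 gave 43, and leaving out 1 library gave 3 to 277. The highest counts came without control replicate 1, where the common dispersion was 0.00449 against 0.0233 with all 6 libraries and 0.00938 with GC offsets. Changed thresholds call fewer or more genes by construction, and otherwise the cause was not tested. Deviations of same-numbered libraries correlated at -0.272, -0.505 and 0.384, and control replicate 1 correlated best with labelled replicate 2. Both of these fell with GC content (rank correlations -0.773 and -0.469), so such correlations cannot decide whether the numbers pair the libraries. With the replicate block Lpl was at -0.55 (adjusted p = 0.549). Where 1 library was left out, edgeR pooled the spread over the groups. Ermap, Apoe, Nr1h3, Arl4c, Drc3 and Dbn1 rest on few counts, which limits what could be detected for them.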
